A study of Mus musculus with 8 samples.

Results

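The IDs described here are those whose ribosome footprints were found mainly in the attached stroma of cultured mouse bone marrow. They were chosen by measured footprint levels in the same 8 libraries. A level is a library's count divided by its column sum and scaled to 1000000 (CPM). An ID was taken when its mean over the 4 stroma libraries was 20 CPM or more and at least 4 times its mean over the 4 suspension libraries. In addition, its lowest stroma value had to exceed its highest suspension value. Of the 20154 UCSC known-gene IDs in the table, 159 (0.789%) met this rule and are called the stroma members below.

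Ribosome footprinting sequences the short piece of mRNA that a translating ribosome shields from nuclease, so the count for a gene reflects both how much of its mRNA is present and how heavily that mRNA is occupied by ribosomes. Marrow stroma is the adherent layer that supports blood formation. In culture it is known to hold fibroblast-like and other mesenchymal cells and adherent macrophages, and in varying amounts endothelial cells. Blood progenitors and maturing blood cells mostly float above it. Dnmt2 (gene symbol Trdmt1) is an enzyme that methylates a cytosine in the anticodon loop of a few tRNAs.

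The cells came from tibias, femurs and humeri of C57BL/6 mice at postnatal day 8, either wild type or Dnmt2-/-. Mononuclear marrow cells of both genotypes were cultured in IMDM with serum, thrombopoietin, FLT3 ligand and stem cell factor, after which floating cells and attached stroma were harvested apart. This gave 4 groups of 2 libraries: wild-type suspension, Dnmt2-/- suspension, wild-type stroma and Dnmt2-/- stroma. The labels do not state which Dnmt2 allele was used, whether animals were pooled, or whether replicates were separate cultures. The p-values below therefore set a difference only against the spread between these libraries within groups, and that spread may be technical. The 2 knockout stroma columns carry 1 shared header and stand below as libraries a and b, with no replicate number. Totals lay between 1713729 and 4025780 counts per library. Within every group the 2 libraries stood apart from each other. In suspension and wild-type stroma the difference between replicate numbers was correlated from group to group, as given below.

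The deposited table names features by UCSC ID only, and the reference gene table used here held 0 of them. The stroma members are therefore described by rank and value, with the ID given for the 2 most abundant. For the same reason the cell type markers of stroma, macrophage and blood cells could not be checked against the label of the fraction. The level of Dnmt2 itself, protein classes, genome positions and sequences were not analysed here.

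The rule used stroma levels and, in its ratio and overlap criteria, the difference between stroma and suspension, so the values of that difference are a description and carry no test. A mean stroma level of 20 CPM or more was reached by 5352 IDs. Among these, the stroma libraries lay wholly above the suspension libraries for 20.6%, a share that includes the members and from which nothing is read. Level and ratio together were met by 161 IDs, of which 2 failed because their fractions overlapped. One of those had a lowest stroma value of 9.12 CPM against a highest suspension value of 11.1 CPM, and the other had 10.1 against 12.7 CPM. At the ratio threshold, the members just inside had ratios of 4.01 and 4.02, and the IDs just outside had 4.00 (3.9997 before rounding) and 3.99. At the level threshold, the members just inside had 20.6 and 21.2 CPM in stroma, and the IDs just outside had 19.9 and 18.9 CPM.

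**Figure D1:**
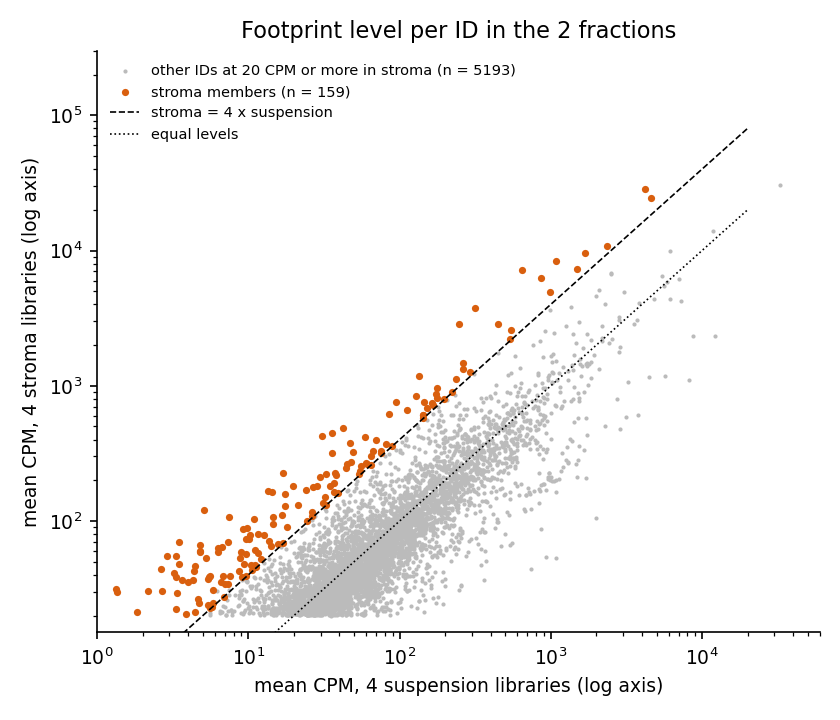
Mean footprint level per ID in the 4 suspension libraries (x axis, CPM, log scale) and in the 4 stroma libraries (y axis, CPM, log scale), for IDs at 20 CPM or more in stroma. Orange points are the 159 stroma members, grey points the other 5193 IDs; the dashed line marks a 4-fold ratio and the dotted line equal levels. The members lie above the dashed line at stroma levels from 20.6 to 28428 CPM.

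The stroma members spanned a wide range of levels. Their mean stroma level ran from 20.6 to 28428 CPM with a median of 120.2 CPM. It was 100 CPM or more for 87 members and 1000 CPM or more for 19. Their mean suspension level ran from 1.32 to 4564 CPM with a median of 17.3 CPM. No member (0 of 159) was without counts in all suspension libraries, and 5 had no count in at least 1 of them. The summed suspension count of a member was at least 15 and had a median of 209, so a low suspension level rested on few counts for many members. The ratio of stroma to suspension had a median of 5.76 and reached 23.9, and 30 members had a ratio of 10 or more. The lowest stroma value exceeded the highest suspension value by a median factor of 3.29, with a range of 1.31 to 8.85.

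Some of the IDs with the most footprints in the stroma were members. CPM was not divided by transcript length, so the ranking is of footprints held and not of translation per mRNA. When all IDs were ranked by mean stroma level, 7 of the first 10 and 19 of the first 100 were stroma members. In the same ranking by mean suspension level, members took 0 of the first 10 and 5 of the first 100. The most abundant members were thus also well represented in suspension cells. The least abundant were close to the limit of counting there, and 26 had a mean suspension level under 5 CPM.

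The 2 most abundant members ranked 2 and 3 among all IDs of the stroma. The ID uc012elo.1 had 3676 and 4927 CPM in wild-type suspension, 2456 and 5590 CPM in knockout suspension, 26613 and 29894 CPM in wild-type stroma, and 27427 and 29777 CPM in knockout stroma. Its stroma libraries lay close together, while its suspension libraries differed by more than 2-fold, with knockout replicate 1 lowest and knockout replicate 2 highest. The ratio of stroma to suspension means was 6.57 in wild type and 7.11 in the knockout.

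The ID uc007uhh.1 had 4096 and 5089 CPM in wild-type suspension, 3308 and 5762 CPM in knockout suspension, 21900 and 26233 CPM in wild-type stroma, and 23897 and 26083 CPM in knockout stroma. Knockout replicate 1 was again the lowest suspension library and knockout replicate 2 the highest. The ratio of means was 5.24 in wild type and 5.51 in the knockout. In both IDs the 2 genotypes overlapped within each fraction.

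**Figure D2:**
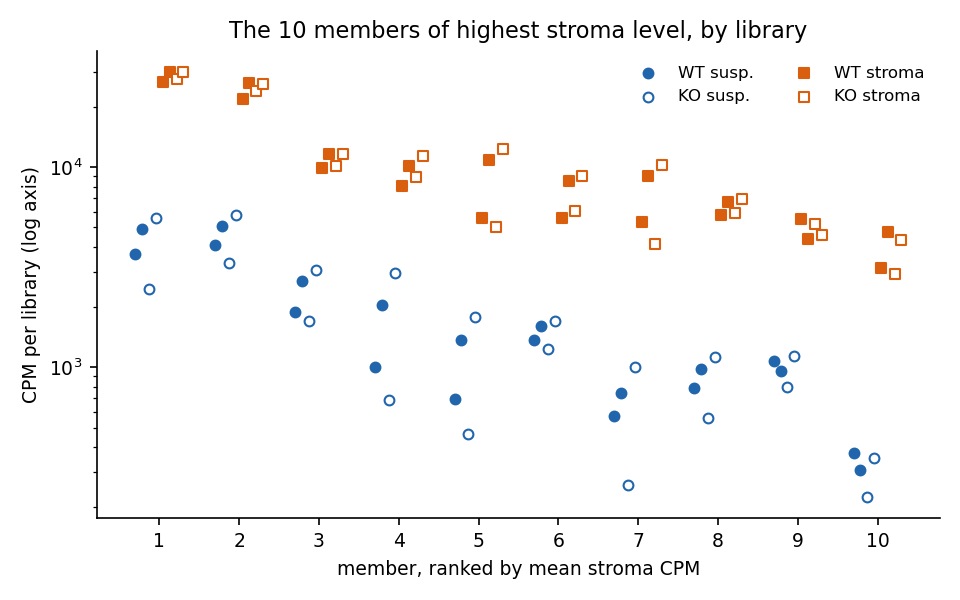
CPM in each of the 8 libraries (y axis, log scale) for the 10 members of highest mean stroma level (x axis, by rank). Filled symbols are wild type and open symbols knockout; circles are suspension and squares stroma. For the member ranked 7 the stroma libraries spread from 4134 to 10271 CPM, while those of the member ranked 1 lie between 26613 and 29894 CPM.

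Among the next most abundant members, the spread between the libraries of one group differed widely. The member ranked 5 had 5556 and 10878 CPM in wild-type stroma and 5005 and 12298 CPM in knockout stroma, against 696 and 1374 CPM in wild-type suspension and 465 and 1778 CPM in knockout suspension. In every group, 1 library of this member was about 2-fold or more above the other. The member ranked 9 was steadier, with 5517 and 4395 CPM in wild-type stroma and 5211 and 4561 CPM in knockout stroma. Its suspension values were 1078 and 962 CPM in wild type, against 797 and 1140 CPM for the knockout. The groups of one fraction overlapped between genotypes for both members.

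The members with the largest ratios were of modest level. The 20 members of largest ratio had a median mean stroma level of 59.5 CPM, against 149.5 CPM for the other members. The largest ratio, 23.9, belonged to the member ranked 143 by stroma level. It had 2.98 and 0.365 CPM in wild-type suspension, 1.95 and 0 CPM in knockout suspension, 53.0 and 13.1 CPM in wild-type stroma, and 36.5 and 23.8 CPM in knockout stroma. Only 20 counts in all suspension libraries together stood behind this ratio. The next largest, 23.6, belonged to the member ranked 80, with 11.7 and 2.19 CPM in wild-type suspension, 4.18 and 2.33 CPM in knockout suspension, 131.5 and 100.4 CPM in wild-type stroma, and 95.5 and 153.4 CPM in knockout stroma. In both members wild-type suspension replicate 1 was the highest suspension library.

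Together the stroma members took a large share of the stroma footprints. In wild-type stroma they held 13.5% and 17.2% of the counts, and in knockout stroma 13.8% and 17.7%. In suspension cells their share was 2.24% and 3.01% for wild type, and 1.70% and 3.47% for the knockout. The group means were 15.4% ± 2.6 and 15.8% ± 2.8 in wild-type and knockout stroma, and 2.63% ± 0.54 and 2.58% ± 1.25 in wild-type and knockout suspension (SD, n = 2 each). Within each fraction, the genotype means thus lay closer together than the libraries of one genotype. The quotient of stroma over suspension means was 5.85 in wild type and 6.10 in the knockout. Scaling by TMM, a method that sets most IDs level between libraries, raised stroma against suspension values by 0.22 on average on the log2 scale, and all members still met the rule.

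A few members carried most of this share. The 10 most abundant accounted for 71.5% of the members' mean stroma level, and the 2 most abundant for 4.85% to 5.61% of all counts of a stroma library. The other 149 members held 3.78% to 5.09% of a stroma library and 0.530% to 1.02% of a suspension library. In bulk lysates such as these, fewer cells of a type and fewer footprints per cell cannot be told apart.

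**Figure D3:**
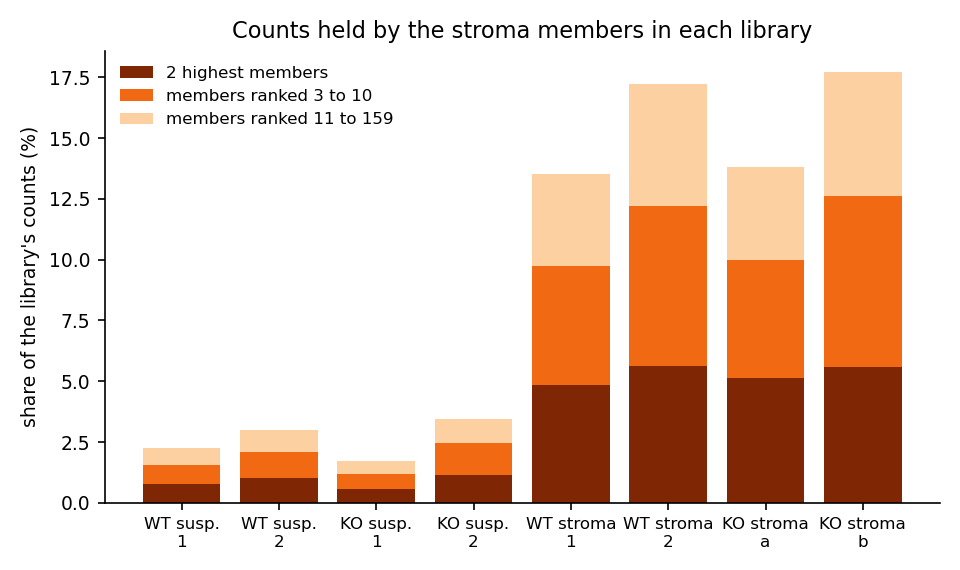
Share of each library's counts (y axis, percent) held by the stroma members in the 8 libraries, split into the 2 most abundant members, those ranked 3 to 10, and those ranked 11 to 159. The stroma bars reach 13.5% to 17.7% and the suspension bars 1.70% to 3.47%, and the lowest suspension bar is knockout replicate 1.

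The direction of the difference was the same in both genotypes for every member by the rule itself. Its median size was similar, which a rule on means over both genotypes also favours. The ratio of stroma to suspension means had a median of 5.83 in wild type (range 3.46 to 22.3) and 5.93 in the knockout (range 3.36 to 83.7). The ratio reached 4 for 147 members in wild type and for 151 in the knockout. It was larger in the knockout for 112 of 159 members, a share that was not counted over all IDs. The knockout quotient over the wild-type quotient had a median of 1.07 and a range of 0.46 to 8.37. Single libraries weighed on this. The median of the interaction given below changed sign when any 1 of several libraries was left out, knockout suspension replicate 1 among them. The knockout ratio of 83.7 belonged to the member ranked 114, which had 1.39 and 0 CPM in knockout suspension against 45.1 and 71.6 CPM in knockout stroma. When the rule was applied to the 4 wild-type libraries alone it took 157 IDs, and applied to the 4 knockout libraries alone it took 173. The lists shared 138 IDs, which is 87.9% of the first and 79.8% of the second.

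The comparison of genotypes was not part of the rule and asked whether loss of Dnmt2 changed the footprints of the stroma members. It was tested with edgeR's quasi-likelihood model fitted to all 10157 IDs that passed a low-count filter. All 159 members passed that filter. The adjusted p-values are Benjamini-Hochberg values over all tested IDs, called under 0.05. The spread within groups includes the difference between replicate numbers described below. Unadjusted edgeR p-values under 0.05 were found for 0.423%, 0.630% and 0.453% of tested IDs in stroma, suspension cells and their interaction. That is fewer than this threshold gives where nothing differs, so the test is conservative. The absence of calls therefore does not show that levels were equal.

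In stroma, no member was called between knockout and wild type (0 of 159, against 0.0% of all tested IDs), and no member had an unadjusted p under 0.05. Among all tested IDs 43 had one. DESeq2 and limma likewise called 0 IDs, and 0 members had an unadjusted p under 0.05 in either. Of the members, 71 were higher and 88 lower in the knockout. The median log2 difference was -0.01 over the members and -0.004 over all tested IDs. Leaving out 1 library moved the members' median between -0.24, without knockout library b, and 0.20, without wild-type stroma replicate 2. The members' log2 differences ran from -0.65 to 0.68, with a median standard error (SE) of 0.40. For 79 of 159 members the 95% interval of the difference lay within 2-fold in both directions, and for the others it reached further. The smallest p, 0.133 before adjustment, belonged to the member ranked 159, with 17.7 and 13.9 CPM in wild-type and 35.9 and 14.9 CPM in knockout stroma. Library a alone was high for this member, and the groups overlapped.

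In suspension cells, no member was called either (0 of 159, against 0.0% of all tested IDs). Unadjusted p-values under 0.05 were found for 2 members and for 64 of all tested IDs, which is 1.26% and 0.630%. DESeq2 and limma called 0 IDs as well, with 2 and 1 members at an unadjusted p under 0.05. The edgeR count of 2 members depended on single libraries. It was 21 and 3 when knockout suspension replicate 2 or 1 was left out, and 12 and 6 when replicate 2 or 1 of the wild type was, with 0 IDs called in each. Among all tested IDs it was then 144, 214, 111 and 109. The members' median log2 difference was -0.13, against -0.003 over all tested IDs, and 111 of 159 were lower in the knockout. For 41 members the 95% interval lay within 2-fold. The member of smallest p was the one ranked 114, with 8.45 and 1.82 CPM in wild-type and 1.39 and 0 CPM in knockout suspension. Its log2 difference was -2.55 ± 0.97 (SE) (edgeR, unadjusted p = 0.0280, adjusted p = 1.00). The knockout libraries lay below both wild-type libraries, but the wild-type values differed by more than 4-fold. The member ranked 148 came next, at 4.47 and 4.74 CPM in wild-type and 2.51 and 1.75 CPM in knockout suspension. Its groups did not overlap, and its log2 difference was -1.03 ± 0.36 (SE; edgeR, unadjusted p = 0.0331, adjusted p = 1.00).

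The genotype difference of a member was also compared between the fractions, as an interaction in the same edgeR model. It was called for 0 of 159 members, against 0.0% of all tested IDs. An unadjusted p under 0.05 was found for 1 member, the one ranked 114, and for 46 of all tested IDs. With DESeq2 and limma 0 IDs were called, and 1 and 0 members had such a p. The members' median was 0.11 on the log2 scale, and it was -0.0002 over all tested IDs. It changed sign with single libraries, from 0.57 without knockout suspension replicate 2 to -0.29 without knockout suspension replicate 1, and was also below 0 without wild-type suspension replicate 2, wild-type stroma replicate 1 or knockout library b. Its 95% interval lay within 2-fold for 18 members.

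The small median in suspension cells combined opposite differences in the 2 replicate numbers. For replicate 1, knockout suspension was below wild-type suspension for 145 of 159 members, with a median log2 difference of -0.46 (log2 of CPM + 0.5). For replicate 2, it was above for 106 of 159, with a median of 0.14. Over all 5352 IDs at 20 CPM or more in stroma, the medians were -0.04 and -0.03. The members' median in the edgeR model moved accordingly with single libraries, from -0.60 without knockout suspension replicate 2 to 0.27 without knockout suspension replicate 1.

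More than 2-fold differences showed the same contrast. For replicate 1, 25 members (15.7%) were more than 2-fold lower in knockout than in wild-type suspension and 2 were more than 2-fold higher. Of the 5352 IDs at that stroma level, 0.542% were lower and 0.0561% higher by as much. The 25 members had a median of 9.19 CPM in the wild-type and 3.35 CPM in the knockout library. For replicate 2, 5 members were more than 2-fold lower and 7 higher, against 0.243% of the 5352 IDs in each of the directions.

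A median of 68 counts over the 4 suspension libraries stood behind the 25 members. The part of low counts in these folds was not tested. Among the 76 members with a mean suspension level of 20 CPM or more, 3 were more than 2-fold lower for replicate 1. Among the 4964 IDs at 20 CPM or more in both fractions, 0.0604% were, which is these same 3. The median difference of the 76 was -0.38, against -0.04 over the 4964 IDs. Each of these comparisons sets 1 library against 1 and has no replicate check, and the rule used the same suspension values.

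**Figure D4:**
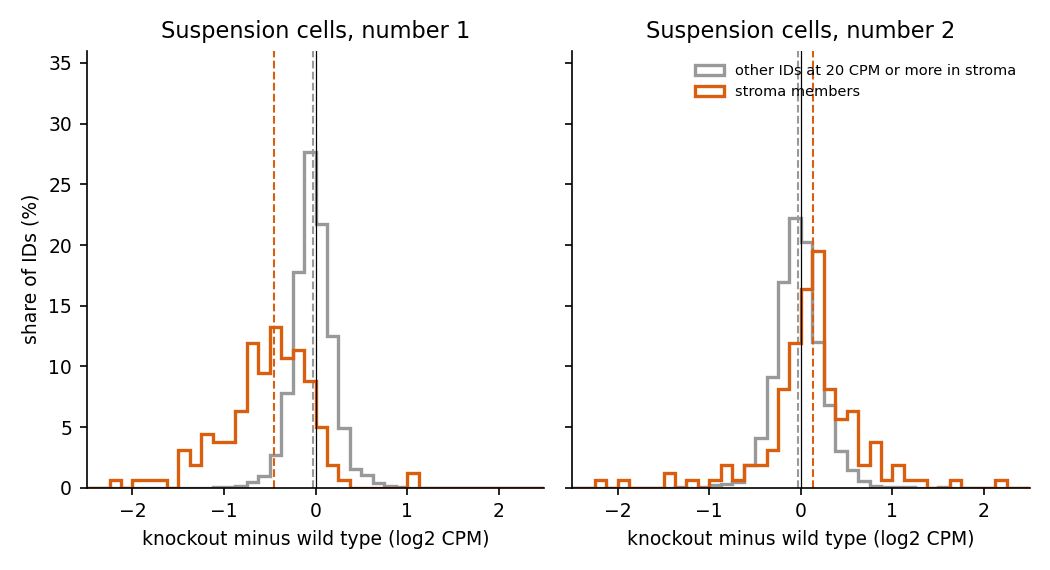
Distribution of the difference between knockout and wild-type suspension cells (x axis, log2 of CPM + 0.5) for replicate number 1 (left) and number 2 (right), as a share of IDs (y axis, percent). Orange is the 159 stroma members and grey the other IDs at 20 CPM or more in stroma; dashed lines mark medians. The members' median is -0.46 on the left and 0.14 on the right.

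Knockout suspension replicate 1 was in fact the lowest of the 4 suspension libraries for 110 of 159 members (69.2%). It was the lowest for 29.0% of the 5352 IDs at 20 CPM or more in stroma. The mirrored rule, with the fractions exchanged, took 239 IDs found mainly in suspension cells. Their median difference between knockout and wild-type suspension was 0.31 for replicate 1 and 0.14 for replicate 2. They held 8.38% and 11.8% of wild-type suspension counts and 9.77% and 12.1% of knockout suspension counts. For replicate 1, the stroma members' summed share was thus lower and the suspension IDs' summed share higher in the knockout library than in the wild-type library.

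The largest difference among libraries of one fraction followed the replicate number in the labels. What such a number marks is not stated in the labels. The rule did not compare numbers. Its overlap criterion did read the lowest and highest single libraries, so the values compared here are not independent of it. A comparison of number 2 with number 1 was added with earlier results of these data known. It was fitted with edgeR to all IDs of the 6 numbered libraries (wild-type and knockout suspension and wild-type stroma) beside the group means. Of 10131 tested IDs, 19.2% were called in either direction, 10.4% as higher in number 2 and 8.85% as higher in number 1.

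Among the stroma members, 90 of 159 (56.6%) were called. Of the 5352 IDs at 20 CPM or more in stroma, 26.5% were. Of the 90, 69 members were higher in number 2 and 21 were higher in number 1. The members' median log2 difference was 0.45, against 0.02 over all tested IDs. A group that loses 1 library is fitted exactly by its own mean and adds nothing to this comparison. Fits with 1 library left out therefore compare the numbers in the other groups only. They cannot show the influence of a single library. With number 1 or 2 of wild-type suspension dropped, the members' median was 0.52 or 0.53. For knockout suspension it was 0.32 or 0.31, and for wild-type stroma 0.43 or 0.44.

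The 69 members higher in number 2 included most of the abundant ones, with 16 of the 20 members of highest stroma level. Their median stroma level was 226.8 CPM and their median ratio of stroma to suspension 5.05. The largest of these differences belonged to the member ranked 17. It had 92.4 and 490.1 CPM in wild-type suspension, 91.4 and 491.3 CPM in knockout suspension, 686 and 1728 CPM in wild-type stroma, and 919 and 1737 CPM in knockout stroma. Its genotypes were nearly equal within each number in suspension. Its log2 difference between numbers was 2.05 ± 0.20 (SE; edgeR, adjusted p = 0.000131). In each of these 3 numbered groups the library numbered 2 was more than 2-fold above the library numbered 1. Among members higher in wild-type stroma replicate 2 than in replicate 1, the largest quotient belonged to the one ranked 79, with 68.8 and 206.7 CPM there and 60.6 and 180.1 CPM in knockout stroma. In suspension it had 8.20 and 28.1 CPM in wild type, and 5.02 and 28.0 CPM in the knockout, so each group held a low and a high library.

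The most abundant members of all differed less between numbers. The log2 difference was 0.60 ± 0.18 (SE) for uc012elo.1 and 0.47 ± 0.15 (SE) for uc007uhh.1 (edgeR, adjusted p = 0.0354 and 0.0430). For the member ranked 5 it was 1.30 ± 0.18 (SE; edgeR, adjusted p = 0.00127). The member ranked 9 was not called, with a log2 difference of 0.02 ± 0.16 (SE).

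The 21 members higher in number 1 were of another kind. None of them (0 of 21) was among the 20 members of highest stroma level, but 13 were among the 20 of largest ratio. Their median stroma level was 46.7 CPM, their median suspension level 3.96 CPM and their median ratio 12.6. The largest difference belonged to the member ranked 135. It had 14.4 and 1.09 CPM in wild-type suspension, 5.85 and 0.584 CPM in knockout suspension, 75.8 and 19.7 CPM in wild-type stroma, and 29.0 and 29.5 CPM in knockout stroma. Its log2 difference was -2.23 ± 0.29 (SE; edgeR, adjusted p = 0.000844).

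Wild-type replicate 1 stood out for this group of 21 in both fractions. It was the highest suspension library for 21 of 21 and the highest stroma library for 19 of 21. The median level was 8.45 CPM in wild-type suspension replicate 1, against 1.46 CPM in wild-type suspension replicate 2 and 3.90 and 1.75 CPM in the knockout suspension libraries. In stroma it was 64.1 CPM in wild-type replicate 1, 31.5 CPM in wild-type replicate 2, and 42.9 and 48.5 CPM in knockout libraries a and b. For replicate 1, all 21 were lower in knockout than in wild-type suspension, 13 of them by more than 2-fold. These 21 were picked by values that include those libraries, so the medians are a description.

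The knockout stroma libraries took no part in the comparison of numbers. All 69 members higher in number 2 were higher in library b than in library a, with a median log2 difference of 0.57. Over all IDs called higher in number 2, 84.3% were higher in library b. Of the 21 members higher in number 1, 10 were higher in library a and 11 in library b, with a median difference of 0.03. Over all IDs called higher in number 1, 93.4% were higher in library a. The members higher in number 2 thus separated the knockout stroma libraries as well, and those higher in number 1 did not.

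**Figure D5:**
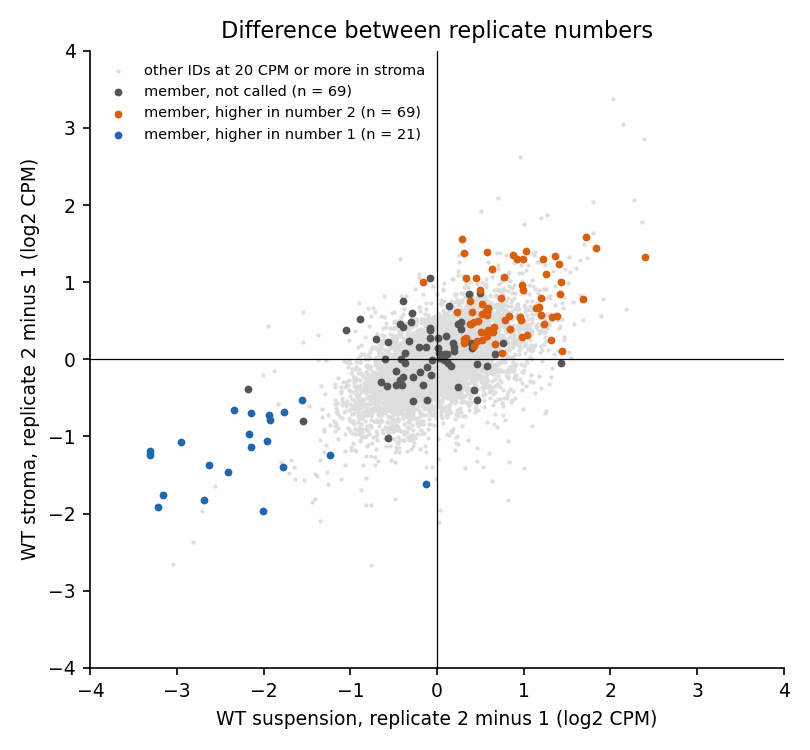
Difference between replicate 2 and replicate 1 (log2 of CPM + 0.5) in wild-type suspension (x axis) and in wild-type stroma (y axis). Orange points are the 69 members higher in number 2, blue points the 21 higher in number 1, dark grey points the 69 members not called, and pale points the other IDs at 20 CPM or more in stroma. The blue points lie to the lower left, and the orange points lie mostly to the upper right.

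Counted by 2-fold steps, the libraries of one group differed for a larger share of members than of all IDs in most comparisons, but at higher suspension levels only in one direction. In wild-type suspension, 23 members were more than 2-fold higher in replicate 2 and 23 lower, against 3.64% and 2.24% of the 5352 IDs. In knockout suspension, 55 were higher in replicate 2 and 10 lower, against 6.17% and 3.61%. In wild-type stroma, 20 were higher in replicate 2 and 15 lower, against 1.61% and 2.32%. In knockout stroma, 21 were higher in library b and 2 lower, against 1.78% and 1.7%.

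Among the 76 members with a mean suspension level of 20 CPM or more, the excess lay in the direction of replicate 2 or library b alone. More than 2-fold higher were 13 for wild-type and 29 for knockout suspension, and 9 for wild-type and 8 for knockout stroma. The shares among the 4964 IDs at that level in both fractions were 3.2%, 5.3%, 1.21% and 1.29%. Lower by more than 2-fold were 1, 0, 1 and 0 of the 76, against 1.85%, 3.49%, 2.07% and 1.71%. The members more than 2-fold lower in replicate 2 or library b thus nearly all had mean suspension levels under 20 CPM.

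The difference between numbers ran in parallel in the 2 fractions. Across the 159 members, the difference in wild-type suspension and the difference in wild-type stroma, which share no library, correlated with r = 0.80 (Pearson) and rho = 0.72 (Spearman). Across the 5352 IDs these values were 0.58 and 0.53. The sign was the same for 130 members (81.8%) and for 68.6% of the 5352 IDs. Members are not independent replicates, and few counts in suspension add scatter to the first measure. For the 239 IDs found mainly in suspension cells the medians of the 2 fractions had opposite signs, 0.59 in wild-type suspension and -0.41 in wild-type stroma. For the stroma members they were 0.28 and 0.27.

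Between the genotypes, by contrast, stroma libraries could be found that were almost alike. Knockout library b and wild-type stroma replicate 2 differed by more than 2-fold for 0 of 159 members, and knockout library a and wild-type stroma replicate 1 for 3. Of the 5352 IDs, 0.0374% and 0.131% did. In the other pairings, a with replicate 2 and b with replicate 1, 24 and 26 members differed by that much, against 3.36% and 4.0% of the 5352 IDs. Near-alike and unlike pairings were thus found over all IDs, not only over the members. These are single libraries, and the knockout columns carry no replicate number.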

How the data were processed

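Ribosome-protected fragments of 28 to 31 nucleotides were sequenced from 8 libraries. The authors deposited 1 table of raw counts per UCSC known-gene ID, with 1 column per library, per the file headers. Bowtie and build mm9 are named in the submitters' processing notes. The counting tool, strand setting and treatment of multiple matches were not given in the sources used here, so reads of near-identical genes may be split or lost. No matched mRNA libraries were used.

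CPM values are counts divided by the column sum. Members, gene lists and comparisons were chosen with earlier results of these data known. Members named by rank follow a rule: the highest stroma levels, the largest ratios, those closest to the thresholds, the lowest p in a genotype contrast and the largest differences between wild-type stroma replicates (ranks 143 and 135). The members ranked 17 and 79 lie outside it and were chosen after their values were seen. As no table used here pairs IDs with gene names, 2 IDs are printed and the lists of cell type markers were not used.

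The count test was edgeR 4.0.16 under R 4.3.3 (TMM scaling, filterByExpr with a minimum count of 10, quasi-likelihood test, 4 group means over 8 libraries). Log2 differences carry no prior count. The SE was derived from the F statistic, and is approximate. DESeq2 1.42.0, limma 3.58.1, raw library sizes, no filter and each library left out were tried as alternatives. Folds between single libraries used a pseudocount of 0.5 CPM. Depth limits members with few suspension counts most.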

Additional observations from a re-analysis of the deposited data

How the results depend on the processing

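No member and no other ID (0) was called between the genotypes, in stroma, in suspension cells or as their interaction. This was so with edgeR, DESeq2 and limma, and in edgeR also with raw library sizes and without the filter. The rule took 262 IDs at a ratio of 3 and 45 at a ratio of 8, and between 135 and 183 with each library left out. With TMM-adjusted library sizes, which raise stroma against suspension values, it took 217, including all 159. The members held 15.6% of the stroma counts on average, and 4.43% without the 10 most abundant.

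The comparison of replicate numbers, chosen after seeing the data, called 1947 IDs and 90 members. DESeq2 called 867 IDs and 61 members. With suspension libraries only 3916 IDs were called, and with wild-type libraries only 1002. Fits with 1 library left out gave 537 to 3922 IDs and 49 to 97 members. A group left with 1 library adds nothing to this comparison, so these fits compare the numbers in the other groups only. They cannot show the influence of a single library. The cause of the difference between numbers was not tested.

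A replicate block by number, fitted to the 6 libraries that carry one, called 0 IDs between wild-type and knockout suspension cells, as did the fit without it (0). An unadjusted p under 0.05 was then found for 15 members and 275 IDs (9.43% and 2.71%), against 3 and 53 unblocked. The members' median log2 difference between knockout and wild type was -0.15 with the block and -0.13 without it. Over all tested IDs the median with the block was -0.006. Deviations from group means of equally numbered libraries correlated across tested IDs at 0.69, 0.42 and 0.38. There are only 2 numbers, and whether they pair the libraries is not stated in the labels. No paired fit was made for stroma, because the knockout columns carry no number.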
